A study of Mus musculus with 4 samples.

Results

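The 10 genes described here encode the muscle acetylcholine receptor and the proteins that gather it at the neuromuscular junction. They were chosen by symbol, as Chrna1, Chrnb1, Chrnd, Chrng, Chrne, Musk, Rapsn, Dok7, Lrp4 and Agrn, and all 10 were found among the 45777 genes of the series. RNA sequencing covered 4 libraries of C2C12 myotubes, the multinucleate cells that this established mouse myoblast line forms when it is moved to low serum. The groups were myotubes titled clenbuterol, the control for clenbuterol, myotubes titled EPS (read here as electrical pulse stimulation) and the control for EPS, with 1 library each. Clenbuterol is a beta2-adrenergic agonist, and both treatments were used as models of exercise in a dish. All 4 cultures shared medium with 2% horse serum, and libraries were made with a stranded mRNA kit. The treatment field gives 30 ng/ml clenbuterol for every library, controls included, so groups follow the titles.

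The titles of the EPS pair disagree with the names of its data. The data named EPS belong to the record titled as the control, and the data named as the control belong to the record titled EPS. The titles are followed below, where the libraries are called EPS-titled and titled EPS control, and the direction of each EPS difference turns round if the data names are the right ones. With 1 library per group no difference has a replicate check and no test was possible. Ratios of CPM, the estimated counts divided by scaled library totals, carry an exact Clopper-Pearson 95% interval that covers counting error only. Library totals ran from 32640884 to 35597074 estimated counts, and each of the 10 genes was above 1 TPM in every library.

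At the junction, agrin released by the motor nerve binds Lrp4 on the muscle surface, and Lrp4 then activates the receptor tyrosine kinase MuSK. Dok7 binds MuSK inside the cell and sustains its activity, and rapsyn, the product of Rapsn, ties acetylcholine receptors into dense clusters. The receptor is a ring of subunits that holds a pair of alpha subunits with beta, delta and either gamma, in fetal and denervated muscle, or epsilon, in innervated adult muscle. Muscle that has no nerve transcribes the receptor genes along its whole length, and electrical activity lowers that transcription outside the synapse.

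The promoters of the alpha, gamma and epsilon genes are shown because the levels of the alpha and gamma genes and that of the epsilon gene lay far apart in these myotubes. They come from RefSeq on GRCm38.p6, the assembly behind mm10, and run 5′ to 3′ on the strand of the gene, ending next to the deposited extent of the gene; for Chrne the RefSeq start lies inside that extent. Capitals mark E-boxes, spelled CANNTG, the site bound by MyoD and myogenin, and in the epsilon promoter also the N-box, spelled CCGGAA, a site of the GABP factor known from synaptic genes. The windows are chr2:73580339-73580498 on the minus strand for Chrna1, chr1:87205651-87205810 on the plus strand for Chrng and chr11:70619214-70619354 on the minus strand for Chrne.
Chrna1: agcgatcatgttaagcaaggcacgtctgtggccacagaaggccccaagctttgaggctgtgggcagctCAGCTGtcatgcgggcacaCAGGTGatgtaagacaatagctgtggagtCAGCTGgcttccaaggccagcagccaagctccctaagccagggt
Chrng: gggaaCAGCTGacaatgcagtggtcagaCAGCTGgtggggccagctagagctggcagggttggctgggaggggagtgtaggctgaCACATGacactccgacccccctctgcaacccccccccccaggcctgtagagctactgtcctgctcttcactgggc
Chrne: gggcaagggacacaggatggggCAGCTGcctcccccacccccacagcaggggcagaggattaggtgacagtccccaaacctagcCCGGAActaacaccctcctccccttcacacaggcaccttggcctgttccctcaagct

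Promoters of 7 of the 10 genes were at hand, those of Chrna1, Chrnb1, Chrng, Chrne, Musk, Dok7 and Agrn. Over the 250 bases before the RefSeq start, Chrna1, Chrnb1, Chrng and Musk held 3 E-boxes each and Chrne held 1. Dok7 and Agrn have 2 RefSeq starts each, and held 1 E-box before one start and 0 before the other. As for Chrne, the RefSeq starts of Chrnb1, Musk, Dok7 and Agrn lie inside the deposited extent of the gene. Part or all of those windows is therefore sequence within the gene, and all 3 Musk E-boxes fall there. So do the E-boxes of Dok7 and Agrn and the Chrnb1 E-box nearest the start. Of 32851 mouse promoters of that length, 66.2% held at least 1 E-box and 12.2% held 3 or more. Chrne was the only one of the 7 with an N-box, whose first base lay 76 bases before the start. An N-box on either strand was present in 3952 of the 32851 promoters, and the E-box reads the same on both strands. No marked E-box overlapped the N-box. These matches describe letters and do not show that a factor was bound.

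The alpha and gamma genes were among the most abundant transcripts of these myotubes, with a median TPM above that of 99.7% and 99.6% of all genes, while epsilon was scarce. Chrna1, which encodes the acetylcholine-binding alpha subunit and lies on mm10 chr2:73563281-73580338 on the minus strand (NCBI gene 11435), had 1028 TPM with clenbuterol, 1063 in the clenbuterol control, 790.3 in the EPS-titled library and 820.1 in the titled EPS control. Chrng, the gamma subunit gene at chr1:87205811-87211835 on the plus strand (NCBI gene 11449), stood at 880.5 with clenbuterol, 901.6 in its control, 487.9 in the EPS-titled library and 653.6 in the titled EPS control. In all 4 libraries the order per length was Chrna1, then Chrng, then Chrnb1 and Chrnd, then Chrne.

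Chrnb1, the beta subunit gene at chr11:69784036-69795966 on the minus strand (NCBI gene 11443), had 291.7 TPM with clenbuterol, 306.2 in its control, 178.4 in the EPS-titled library and 215.9 in the titled EPS control. Chrnd, the delta subunit gene at chr1:87190597-87200070 on the plus strand (NCBI gene 11447), had 284.8 with clenbuterol, 289.8 in its control, 184.0 in the EPS-titled library and 227.3 in the titled EPS control. The beta and delta genes swapped places between the culture pairs, Chrnb1 being 1.02 and 1.06 times Chrnd with clenbuterol and in its control, and 0.970 times Chrnd in the EPS-titled library and 0.9497 times in the titled EPS control. Chrnd and Chrng lie next to each other on the same strand, 5740 bases apart.

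Chrne, the epsilon subunit gene at chr11:70614883-70619213 on the minus strand (NCBI gene 11448), had 5.54 TPM with clenbuterol, 8.70 in its control, 6.18 in the EPS-titled library and 3.68 in the titled EPS control. These levels rested on 127, 202, 154 and 82 estimated counts in the same order. Chrng thus made up 99.37% of the summed TPM of Chrng and Chrne with clenbuterol, 99.04% in its control, 98.75% in the EPS-titled library and 99.44% in the titled EPS control. In all 4 libraries the gamma transcript far exceeded the epsilon transcript.

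**Figure D1:**
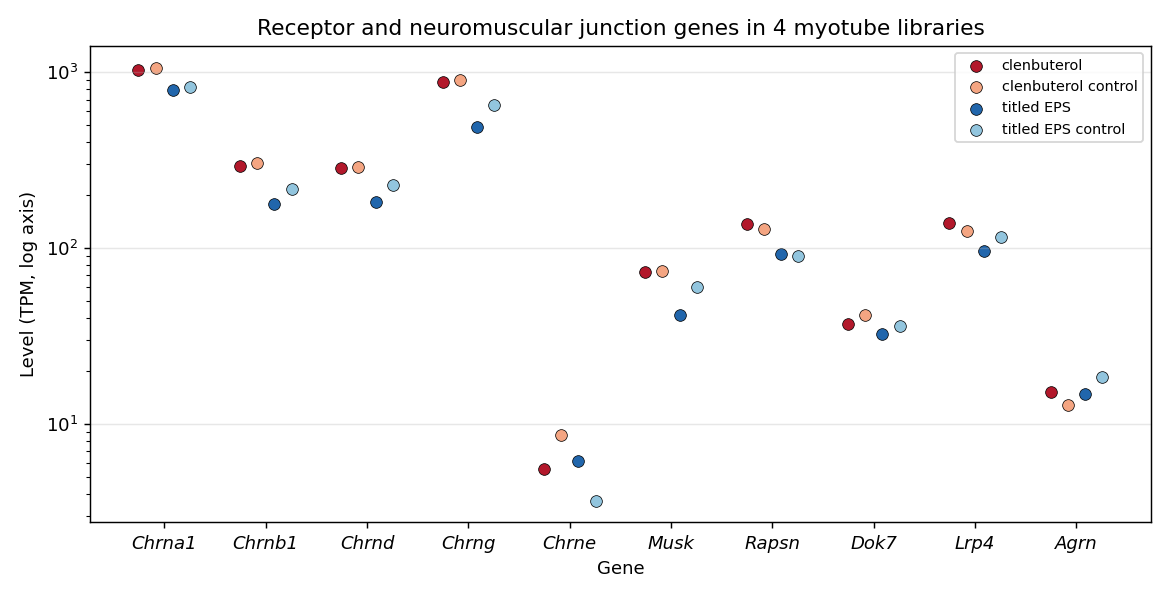
Level of each gene in TPM on a log axis, 1 point per library, ordered as clenbuterol, its control, titled EPS and titled EPS control. Chrna1 and Chrng lie near the top at 487.9 to 1063 TPM, while Chrne lies at the bottom between 3.68 and 8.70 TPM.

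Genes of the signal from agrin to the receptor cluster lay below the alpha, beta, gamma and delta genes in every library. Lrp4, the agrin receptor gene at chr2:91457456-91513901 on the plus strand (NCBI gene 228357), had 138.7 TPM with clenbuterol, 125.2 in its control, 96.6 in the EPS-titled library and 115.7 in the titled EPS control. Rapsn, at chr2:91035472-91045729 on the plus strand (NCBI gene 19400), had 137.2, 128.6, 92.3 and 90.5 in the same order. Rapsn was above Lrp4 in the clenbuterol control and below it in the other libraries.

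Musk, the kinase gene at chr4:58285729-58377848 on the plus strand (NCBI gene 18198), had 73.7 TPM with clenbuterol, 74.5 in its control, 41.8 in the EPS-titled library and 60.2 in the titled EPS control. Dok7, the adaptor gene at chr5:35056571-35087839 on the plus strand (NCBI gene 231134), had 36.98, 41.6, 32.7 and 36.1 in the same order and varied least of the 10, its highest library being 1.27 times its lowest. Agrn, at chr4:156165290-156197533 on the minus strand (NCBI gene 11603), had 15.3 with clenbuterol, 12.9 in its control, 14.9 in the EPS-titled library and 18.6 in the titled EPS control. Agrn values cover all its splice forms together, so the nerve form that activates MuSK and the muscle form cannot be told apart.

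The cells carried the markers of myotubes. The summed TPM of 10 myotube markers, such as Myh3, Acta1, Ckm and Myog, was 18420 with clenbuterol, 17880 in its control, 11810 in the EPS-titled library and 16270 in the titled EPS control. For 6 markers of undifferentiated myoblasts (Pax7, Myf5, Cdh15, Mki67, Ccna2, Top2a) it was 693, 690.5, 637 and 521 in the same order. Most of that sum was Cdh15, at 551, 540.5, 410.5 and 318.1 TPM in the same order. Myf5, Mki67, Ccna2 and Top2a went the other way, being higher in both EPS libraries than in both clenbuterol libraries. Pax7 did not separate the pairs. Markers of the nerve side were near 0. Of 6 motor neuron markers Chat, Slc18a3, Mnx1 and Snap25 were at 0 in every library and none reached a TPM of 1, nor did any of 5 Schwann cell markers, with Sox10 at 0 throughout. Summed TPM ran from 0 to 0.222 for 3 endothelial markers, from 2.93 to 5.03 for 4 macrophage markers (Ptprc and Adgre1 at 0) and from 4.49 to 5.43 for 4 fibroblast markers (Thy1 and Tcf21 at 0). In a bulk library, fewer myotubes and less RNA per myotube cannot be told apart.

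Subunits of neuronal acetylcholine receptors were nearly absent. Of 11 such genes 8 had no count in any library, and none reached a TPM of 1. The highest was Chrnb2, at 0.559 with clenbuterol, 0.310 in its control, 0.632 in the EPS-titled library and 0.322 in the titled EPS control, on 44, 25, 55 and 25 counts. Chrna5 had 10, 0, 3 and 0 counts in the same order, and Chrna2 had 0, 2, 0 and 2.

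The first comparison asked how clenbuterol bears on these transcripts. The alpha, beta, gamma and delta genes and Musk stood at nearly the same level in both libraries. Agrn, Lrp4 and Rapsn were somewhat higher with clenbuterol, Dok7 was somewhat lower, and Chrne was lower by the widest margin. Measured genes are those at 1 TPM or more in either library of a pair. None of the 10 genes was 2-fold apart in TPM plus 1, where 1.00% of 13788 measured genes were 2-fold higher and 0.515% were 2-fold lower. At a lower threshold, a log2 ratio of 0.32 either way, none was higher, against 5.74% of measured genes, and 1 was lower, against 6.53%. Their median log2 ratio of TPM plus 1 was −0.03, beside −0.01 over all measured genes. The ratio was above 0 for 3 of the 10, against 46.4% of measured genes, and below 0 for 7, against 53.6%. The summed TPM of the myotube markers was 1.03 times as high with clenbuterol as in the control.

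Among the subunits, Chrna1 had a CPM ratio of clenbuterol over control of 0.981 (0.970 to 0.992) and Chrnb1 one of 0.966 (0.938 to 0.995). The ratios of Chrnd, 0.997 (0.972 to 1.02), and Chrng, 0.993 (0.975 to 1.01), had intervals that include 1. Chrne differed most, at 127 counts with clenbuterol against 202 in the control, a CPM ratio of 0.647 (0.514 to 0.812). Its log2 ratio of TPM plus 1 was −0.57, and 1.99% of measured genes had a lower one. Chrng TPM was 158.9 times that of Chrne with clenbuterol (133.5 to 190.7) and 103.7 times in the control (90.3 to 119.7).

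In the pathway from agrin to the cluster, Agrn had the highest ratio of the 10. Its counts were 1624 with clenbuterol and 1394 in the control, a CPM ratio of 1.20 (1.12 to 1.29). The ratio was 1.12 (1.10 to 1.15) for Lrp4 and 1.09 (1.03 to 1.14) for Rapsn. Musk had 6351 counts against 6417, a ratio of 1.02 (0.984 to 1.06), and its log2 ratio was below 0 in TPM and above 0 in CPM. For Dok7 the ratio was 0.902 (0.841 to 0.966).

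The other junction genes were taken from 7 lists of 94 genes in all, of which the neuronal subunits had no measured gene. Outside the regulators described last, the measured genes stayed within 0.32 either way with clenbuterol. Most genes did so, as only 5.74% of all measured genes were past 0.32 on the higher side and 6.53% on the lower. None of 21 agrin and MuSK signalling partners reached 0.32 either way, with a median log2 ratio of 0.03. Abl2 (0.21) and Crkl (0.17), a kinase and an adaptor that act downstream of MuSK, were the highest of them, and Apc (−0.15) and Dvl2 (−0.11) the lowest. None of 10 measured synaptic matrix genes reached it either. Colq, which anchors acetylcholinesterase in the synaptic cleft, stood at 0.16, Lama4 at 0.11, Col13a1 at −0.10 and Ache, the esterase itself, at −0.19 on 86 counts against 105. In the synaptic membrane list Utrn (0.09) and Ncam1 (0.09) were the highest of 10 and Syne1 (−0.08) and Sntb1 (−0.06) the lowest. In the list of neuregulin signalling Gabpb1 (0.19) and Nrg1 (0.09) were the highest of 8, with Etv4 (−0.19) and Gabpb2 (−0.10) the lowest. For receptor assembly and traffic Gfpt1 (0.14) and Alg2 (0.08) headed 12 measured genes, with Unc50 (−0.15) and Alg14 (−0.04) at the other end.

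In the list of activity-dependent regulators 3 of 11 measured genes were past 0.32 on the higher side with clenbuterol, against 5.74% of measured genes, and none on the lower, against 6.53%, with a median of 0.06. Sik1, a kinase that cyclic AMP induces in muscle, had 167.7 TPM with clenbuterol and 63.3 in the control, a CPM ratio of 2.69 (2.59 to 2.78). Msc, which encodes the MyoD inhibitor musculin, had 27 counts against 12, a ratio of 2.32 (1.13 to 5.02). It passed the filter only through the clenbuterol library, where it is high, so the filter fixed its direction. Its place among the 3 higher genes is therefore partly set by the filter. Hdac9, a class II histone deacetylase gene, had a ratio of 1.29 (1.09 to 1.53). Myf5 (−0.18) and Gadd45a (−0.03) had the lowest log2 ratios. Myog, the myogenin gene, had 969.5 TPM with clenbuterol and 935.4 in the control.

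The second comparison asked how EPS bears on these transcripts, and it was read by title. The EPS-titled library had less Musk and Chrng than the titled EPS control, with Chrnb1, Chrnd, Lrp4 and Agrn also lower by smaller margins. Chrna1, Rapsn and Dok7 were close to level, and Chrne was higher. None of the 10 was 2-fold apart, where 0.868% of 13828 measured genes were 2-fold higher and 1.14% were 2-fold lower. At the threshold of 0.32, Musk and Chrng were lower, which is 2 of 10 against 12.6% of measured genes, and Chrne was higher, which is 1 of 10 against 7.51%. The log2 ratio was below 0 for 8 of the 10, against 54.6% of measured genes, and above 0 for Chrne and Rapsn, against 45.4%. Their median was −0.27, beside −0.02 over all measured genes.

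Musk had 4072 counts in the EPS-titled library against 5256 in the titled EPS control, a CPM ratio of 0.699 (0.671 to 0.729). The share of measured genes with a lower TPM ratio than Musk was 5.60%. Chrng had 14562 counts against 17132, a ratio of 0.767 (0.750 to 0.784), and 8.02% of measured genes lay lower. Chrnd, its neighbour, had a ratio of 0.830 (0.806 to 0.855), and Chrnb1 one of 0.845 (0.815 to 0.875). Chrna1 stood apart from the other main subunits, with 53289 counts against 48640 and a ratio of 0.989 (0.977 to 1.00), and its log2 ratio was −0.05 in TPM and 0.01 in FPKM, on either side of 0.

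The balance of the subunits therefore differed between the libraries. Chrna1 TPM was 1.62 times that of Chrng in the EPS-titled library and 1.26 times in the titled EPS control, against 1.17 with clenbuterol and 1.18 in its control. The EPS-titled library was the one apart in this ratio. Chrne had 154 counts in the EPS-titled library against 82 in the titled EPS control, a CPM ratio of 1.70 (1.29 to 2.24). Chrng TPM was 78.9 times that of Chrne in the EPS-titled library (67.3 to 93.1) and 177.5 times in the titled EPS control (142.9 to 223.3).

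Of the pathway genes, Agrn had a CPM ratio of 0.821 (0.769 to 0.877) and Lrp4 one of 0.855 (0.834 to 0.877). Rapsn, at 1.05 (0.990 to 1.12), had an interval that includes 1, and so did Dok7, at 0.930 (0.864 to 1.00). Musk TPM was 1.28 times that of Dok7 in the EPS-titled library and 1.67 times in the titled EPS control, beside 1.99 with clenbuterol and 1.79 in its control. Lrp4 TPM was 2.31 times that of Musk in the EPS-titled library and 1.92 times in the titled EPS control, beside 1.88 with clenbuterol and 1.68 in its control.

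Markers of myotubes were lower as well. All 10 were lower in the EPS-titled library, and their summed TPM was 0.726 times that of the titled EPS control. Of the 6 myoblast markers 5 were higher, with a summed TPM 1.22 times as high. Most of that sum was Cdh15, at 410.5 TPM in the EPS-titled library against 318.1 in the titled EPS control. Set against the myotube markers, the summed TPM of the 5 receptor subunits was 13.9 per 100 TPM in the EPS-titled library and 11.8 in the titled EPS control, beside 13.5 with clenbuterol and 14.4 in its control. These values lean on Acta1, the largest of the 10 markers, at 5723 TPM in the EPS-titled library and 9090 in the titled EPS control. It stood at 8891 with clenbuterol and 8270 in its control. The values therefore do not show that receptor transcripts per myotube differed. The part that myotube content has in the lower receptor values was not tested.

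**Figure D2:**
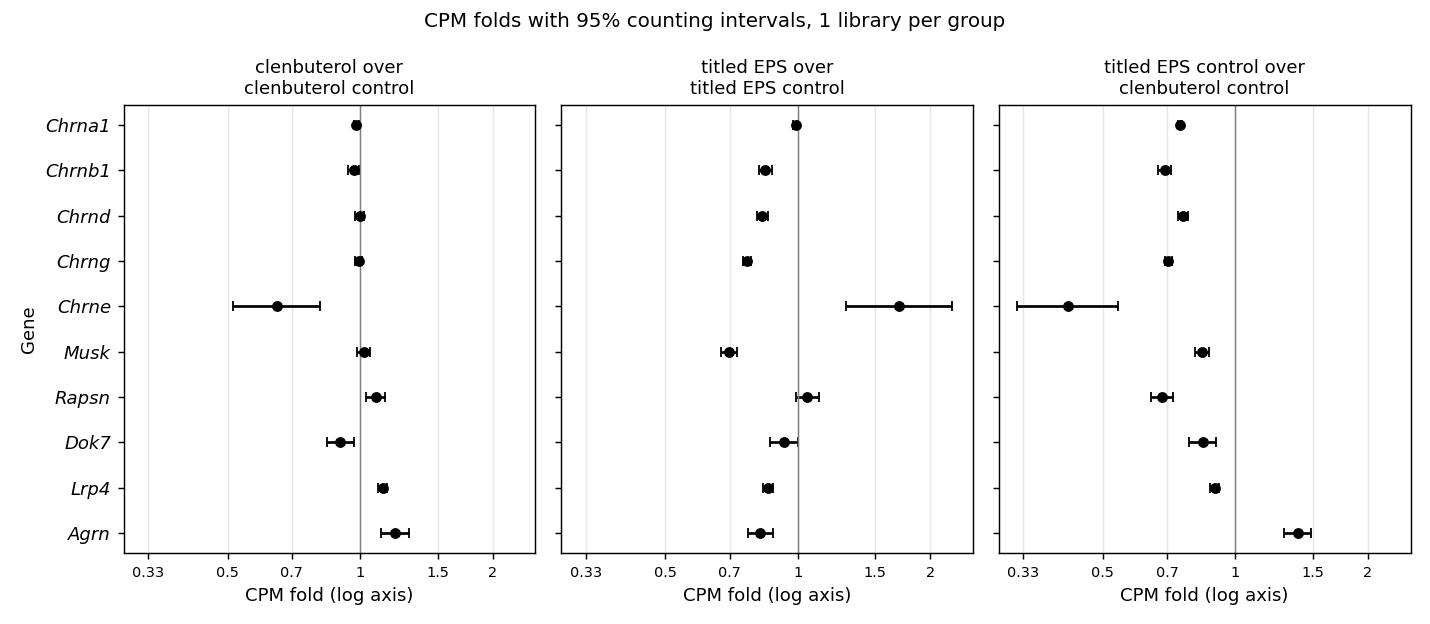
CPM fold of each gene on a log axis, 1 panel per comparison, with points for the fold and bars for the 95% counting interval, which does not cover the spread between cultures. Chrne lies left of 1 for clenbuterol at 0.647 and right of 1 by title for EPS at 1.70, and 9 of the 10 genes lie left of 1 in the panel of the libraries titled as controls.

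**Figure D3:**
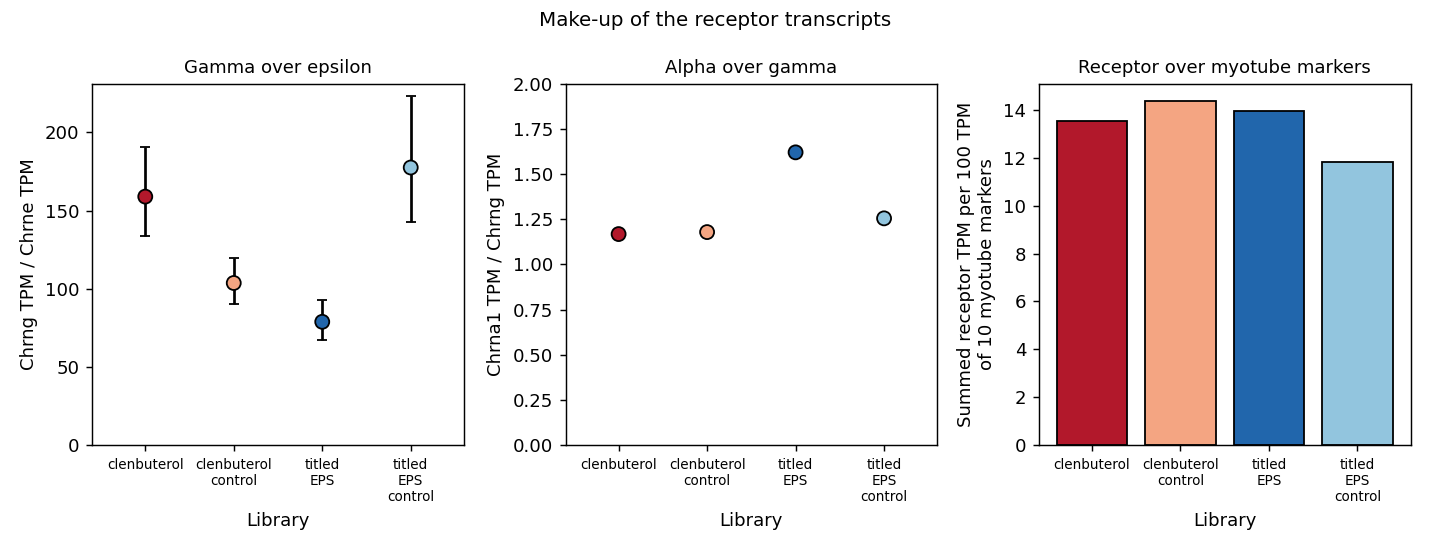
Ratios of TPM in each library, as Chrng over Chrne with 95% counting intervals, Chrna1 over Chrng, and summed TPM of the 5 receptor subunits per 100 TPM of 10 myotube markers. Chrna1 over Chrng was 1.62 in the EPS-titled library and 1.17 to 1.26 in the other libraries, and the receptor sum ran from 11.8 to 14.4. Acta1 is the largest of the 10 markers in each library and weighs heavily in that measure.

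The further lists are read against all measured genes, of which 12.6% were past the threshold on the lower side and 7.51% on the higher by title for EPS, against 6.53% and 5.74% in the clenbuterol pair. Of 10 measured synaptic matrix genes 4 were past the threshold on the lower side in the EPS-titled library, against 12.6% of measured genes, and none on the higher, against 7.51%, with a median log2 ratio of −0.20. Lama4, a laminin chain gene, had 215 counts against 359, a CPM ratio of 0.541 (0.454 to 0.642), and Colq had 425 against 580, a ratio of 0.661 (0.582 to 0.751). Nid1 and Lamb2, which encode the basal lamina proteins nidogen-1 and laminin beta2, were the other ones, and Col13a1 (0.27) and Col4a5 (0.25) had the highest log2 ratios. Col13a1 had 153 counts against 89, a CPM ratio of 1.55 (1.19 to 2.04), so it was past the threshold in CPM though not in TPM plus 1. Of 10 synaptic membrane and dystrophin-complex genes 4 were lower, against the same 12.6%, and none was higher, with a median of −0.25. They were Scn4a, Syne2, Utrn and Ncam1, the last at a log2 ratio of −0.32, right at the threshold. Scn4a, the muscle sodium channel gene, had 1560 counts against 1962 and a CPM ratio of 0.718 (0.671 to 0.767). Utrn, at a CPM ratio of 0.802 (0.782 to 0.823), and Ncam1, at 0.812 (0.799 to 0.825), were short of the threshold in CPM.

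Of 21 agrin and MuSK signalling partners 3 were lower and none higher, a share near the 12.6% of all measured genes, with a median of −0.16. Fyn, a Src family kinase gene, had a CPM ratio of 0.711 (0.680 to 0.744). Macf1, a linker of actin and microtubules, had one of 0.757 (0.749 to 0.766). Src was the other one, and its CPM ratio of 0.810 (0.761 to 0.862) was short of the threshold. Cdc42, a small GTPase gene, was at the other end with a log2 ratio of 0.26, followed by Cttn (0.03). Of 8 measured genes of neuregulin signalling and synaptic transcription, the receptor genes Erbb3 and Erbb2 were lower, with CPM ratios of 0.780 (0.739 to 0.822) and 0.792 (0.743 to 0.844). None was higher, Gabpb1 (0.12) and Gabpb2 (0.03) had the highest log2 ratios, and the median was −0.15.

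Among 10 measured activity-dependent regulators 4 were lower, against 12.6% of measured genes, and 1 was higher, against 7.51%, and the median was −0.15. The lower ones were the class II deacetylase genes Hdac9, Hdac5 and Hdac4, of which Hdac4 lay right at the threshold, and Sik1. Hdac5, at a CPM ratio of 0.832 (0.788 to 0.879), and Hdac4, at 0.813 (0.761 to 0.869), were short of the threshold in CPM. Hdac9 had 0.874 TPM in the EPS-titled library against 4.04 in the titled EPS control. Its counts were 198 against 337, a CPM ratio of 0.530 (0.443 to 0.634) that is nearer to 1 than its TPM ratio. It passed the filter only through the titled EPS control, where it is high, so the filter fixed its direction. Its place among the 4 lower genes is therefore partly set by the filter. Sik1 had a ratio of 0.799 (0.761 to 0.838). Myf5 was higher, at 266 counts against 172 and a ratio of 1.40 (1.15 to 1.70), and Myod1 followed at a log2 ratio of 0.15. Myog, which binds E-boxes of receptor genes, had a ratio of 0.914 (0.893 to 0.936). In the list of receptor assembly and traffic, none of 12 measured genes reached 0.32 either way, and the median was 0.12. Hspa5, a chaperone gene of the endoplasmic reticulum, had 58193 counts against 41535 and a log2 ratio of 0.30. Unc50 stood at 0.26, Prkaca at −0.11 and Myo5a at −0.22.

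**Figure D4:**
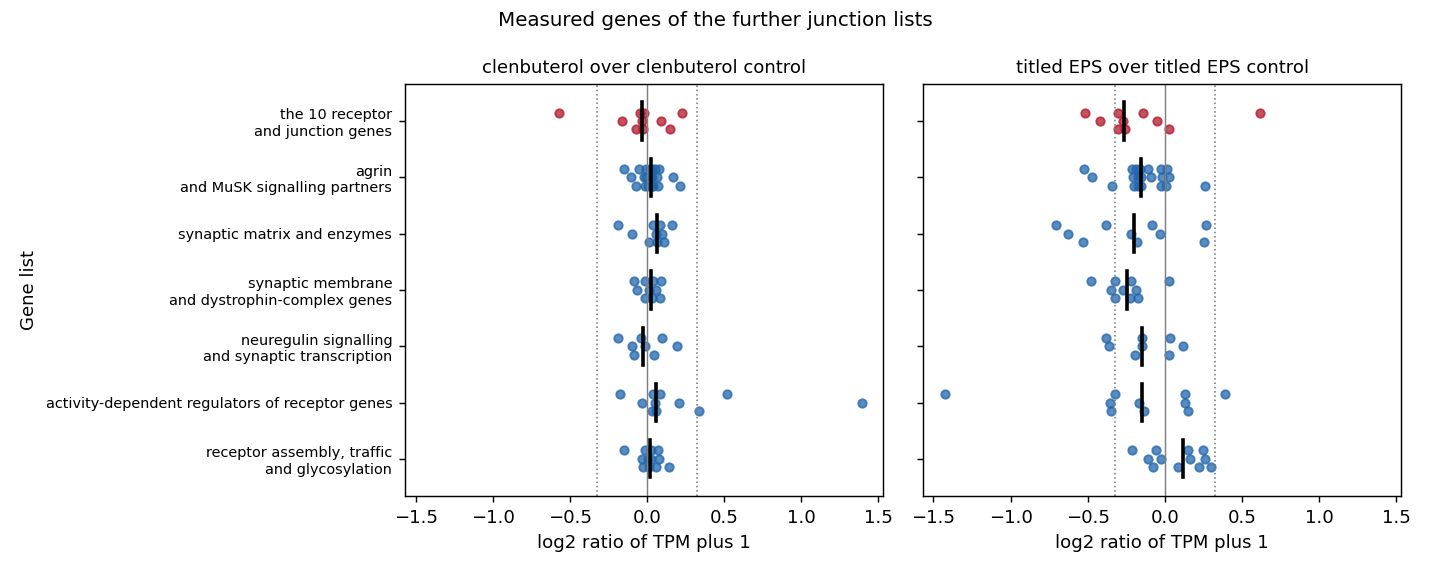
Log2 ratio of TPM plus 1 for each measured gene, 1 row per list and 1 panel per comparison, with black bars at list medians and dotted lines at 0.32 either way. With clenbuterol the medians lie between −0.03 and 0.06, and by title for EPS they run from −0.27 for the 10 receptor and junction genes to 0.12 for receptor assembly.

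The libraries titled as controls differed from each other, and no other measure of the spread between control cultures exists here. By the data names this comparison would set EPS against the clenbuterol control. The titled EPS control had less of 9 of the 10 genes than the clenbuterol control, against 44.1% of 13880 measured genes, and only Agrn had more, against 55.9%. At the threshold of 0.32, 6 of the 10 were lower, against 12.4% of measured genes, and 1 was higher, against 19.5%. Chrne was 2-fold lower, against 1.30% of measured genes, none was 2-fold higher, against 1.85%, and the median log2 ratio was −0.36 beside 0.04 over all measured genes. These libraries are also the denominators of the treatment comparisons, so the values below share samples with those above.

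Chrne had 82 counts in the titled EPS control against 202 in the clenbuterol control, a CPM ratio of 0.417 (0.319 to 0.542). Rapsn had a ratio of 0.681 (0.643 to 0.720), Chrnb1 one of 0.691 (0.669 to 0.713), Chrng one of 0.704 (0.690 to 0.718), Chrna1 one of 0.748 (0.739 to 0.757) and Chrnd one of 0.761 (0.740 to 0.781). For Agrn it was 1.39 (1.29 to 1.49). Musk was at 0.841 (0.811 to 0.873), Lrp4 at 0.898 (0.877 to 0.920) and Dok7 at 0.843 (0.786 to 0.905). Of the 10 myotube markers 9 were also lower in the titled EPS control than in the clenbuterol control. The summed TPM of all 10 was 0.910 times as high. That sum was lifted by Acta1, the largest marker and the only higher one, at 9090 TPM against 8270. Of 6 myoblast markers 5 were higher. The sum of the myoblast markers was nevertheless 0.755 times as high, Cdh15 standing at 318.1 TPM in the titled EPS control against 540.5 in the clenbuterol control. The part of these markers in the receptor values was not tested.

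The difference in level also held for whole pairs of cultures. Both EPS libraries lay below both clenbuterol libraries in TPM for 8 of the 10 genes, Chrne and Agrn being the exceptions, against 25.1% of 14213 genes that reached 1 TPM in any library. None of the 10 lay above, against 34.7%. On the mean log2 of TPM plus 1 over each pair, 7 of the 10 genes were at least 0.32 lower in the EPS pair, against 12.2%, and none was 0.32 higher, against 16.5%. The difference was largest for Chrng, with a mean TPM of 570.7 in the EPS pair against 891 in the clenbuterol pair and a log2 difference of −0.66, and then for Chrnb1, at −0.60. Agrn was the only gene of the 10 with a positive difference, at 0.23. The pattern was not particular to these genes. Every one of the 10 myotube markers except Acta1 was also lower in both EPS libraries than in both clenbuterol libraries. Myog, for example, had 599.9 TPM in the EPS-titled library and 673.4 in the titled EPS control, against 969.5 with clenbuterol and 935.4 in its control. The part of myotube content in the lower receptor values of the EPS pair was not tested. The labels do not say whether the pairs were grown or sequenced together, so treatment, culture and run cannot be told apart between pairs, and this comparison was chosen after the values were seen.

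Chrne had the widest range of log2 TPM plus 1 over the 4 libraries, 1.05. The genes nearest to its pattern, by Euclidean distance between centred log2 values over these 4 libraries, were Lfng (0.11), Cebpzos (0.12), Tpd52l1 (0.21), Syngr1 (0.22) and Adora2b (0.23). Lfng, for example, had 11.5 TPM with clenbuterol, 18.2 in its control, 12.8 in the EPS-titled library and 8.89 in the titled EPS control. Such nearness over 4 libraries is a description only.

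In the deposited coordinates 4 of the 10 genes overlap another gene on the opposite strand, and no source used here says whether the counting of these stranded libraries used strand. The partners of Chrna1 and Agrn were at a TPM of 0 in every library. The partner of Chrne, 4930544D05Rik, reached 0.348 in the clenbuterol control and was at 0 in the other libraries, and that of Rapsn ran from 0.153 to 0.419.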

How the data were processed

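Per gene, the authors deposited estimated counts, FPKM and TPM in a joint table, and in a table per library the coverage, FPKM and TPM. Reads were aligned with HISAT2 to mm10, per the submitters' processing notes; which program made the values is not given in the sources used here. Coverage, a signal the authors deposited, enters no value. Columns were joined to samples through the single-library tables, whose TPM differed by more than 0.001 from the joint table for 1 to 3 genes per library.

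Log2 ratios were taken of TPM with a pseudocount of 1, which shrinks ratios of low genes such as Chrne, over genes that reach 1 TPM in either library. CPM used TMM factors from edgeR 4.0.16 in R 4.3.3. Thresholds were 2-fold and a log2 ratio of 0.32 either way. The fold and its interval were tested on simulated data that held counting error only, the error that the interval assumes. That check says nothing of the spread between cultures. Other steps used Python 3.11.15, numpy 2.4.6, pandas 2.3.3, scipy 1.17.1 and matplotlib 3.10.9. Alternatives were other pseudocounts, FPKM, plain totals, median-of-ratios factors (DESeq2 1.42.0) and other TPM filters.

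The 10 genes, the lists and the markers were chosen with earlier results of these data known. Named are all 10 genes, from each list up to 2 highest and 2 lowest genes per comparison, and the 5 genes nearest to the member with the widest range (TPM of at least 5, protein coding). Lama4, Src, Nid1, Lamb2, Syne2, Utrn, Ncam1, Hdac5, Hdac4, Hdac9 and Myog, where outside that rule, were named after their values were seen. The values of 1 list gene that the rule would name are not reported here.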

Additional observations from a re-analysis of the deposited data

How the results depend on the processing

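No paired analysis was possible because each group has 1 library and the labels give no replicate numbers, and for the same reason no library could be left out. The counts of the 10 genes past 2-fold and past a log2 ratio of 0.32 stayed within 1.5 times under every alternative run, namely pseudocounts of 0.1 and 5 TPM, FPKM, CPM under 3 scalings, no filter and a TPM of at least 5. With a pseudocount of 0.1, 3 genes rather than 2 were past 0.32 on the lower side by title for EPS, Agrn being added. The median log2 ratio by title for EPS, −0.27 in TPM, was −0.20 in FPKM and −0.21 in CPM with plain library totals. The median over all measured genes moved the same way, from −0.02 in TPM to 0.03 in FPKM and 0.03 with plain totals. The comparison of the libraries titled as controls and that of the culture pairs were not run under these alternatives. The share of Chrng in Chrng plus Chrne was 99.48% with clenbuterol, 99.20% in its control and 98.95% in the library titled EPS when taken from counts, which are not per length. The sign of the log2 ratio changed for Musk with clenbuterol (−0.02 in TPM, 0.03 in CPM with TMM or median-of-ratios factors) and for Chrna1 by title for EPS (−0.05 in TPM, 0.01 in FPKM and in CPM with plain totals), and for no other of the 10 genes. Depth limits Chrne, at 82 to 202 counts, more than the other genes, whose counts were 1394 or more. Whether mates or fragments were counted is not given in the sources used here; if mates, the intervals are too narrow.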
